A study of Mus musculus with 34 samples.

Results

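Immediate early activity genes are genes that neurons and other cells transcribe within minutes of a stimulus, without first making new protein. The 10 examined here were taken by symbol from the expression table, 10 of the 16389 genes it holds: Fos, Fosb and Junb, which encode subunits of the AP-1 transcription factor; Egr1, Egr2 and Egr4, zinc-finger transcription factors; Npas4, a transcription factor induced by calcium entry in neurons; Nr4a1, an orphan nuclear receptor; Arc, a synaptic protein that takes part in the removal of AMPA receptors; and Dusp1, a phosphatase that inactivates MAP kinases. The rule that picks them is a list of symbols and holds no expression threshold, but the list was drawn up with earlier results of these data known. All 10 passed the filter on low values, which required 1 FPKM (fragments per kilobase of transcript, scaled to the mapped reads of the library) in at least 3 libraries and left 14710 genes for testing.

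In neurons these genes are switched on by calcium entry and MAP kinase signalling, which act on factors already bound at their promoters, among them CREB, which recognises the cyclic AMP response element, and serum response factor. Their RNAs are short lived, so their level in a dissected brain follows the animal's recent activity and handling as well as its lasting state. Several of the proteins go on to regulate slower genes, while Dusp1 limits the signal that induced it.

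The study asked what long-term replacement of microglia by cells from the bone marrow does to the brain. Male C57BL/6 mice formed 3 groups of 4 animals. WT CON animals were labelled as vehicle controls and had neither irradiation nor transplant. GFP-BM CON animals were irradiated over the whole body with 1000 cGy and given marrow from CAG-EGFP donors, in which the fluorescent protein is driven by a general promoter. GFP-BM REPOP animals had the same irradiation and marrow, and 3.5 months later took the CSF1R inhibitor PLX3397, which removes microglia, in chow at 600 ppm for 14 days, followed by 6 months without it. Irradiation was at 4 months of age according to a figure legend of the paper, and tissue was collected about 10 months later. The general methods give a younger age for mice unless otherwise indicated. Both GFP-BM groups thus share irradiation and transplant, whose effects cannot be told apart, and both WT CON comparisons share the same control libraries.

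RNA from cortex, hippocampus and thalamus (dissected together with striatum) gave 34 libraries from 12 animals: cortex gave 3 libraries of WT CON and 4 of each GFP-BM group, hippocampus 4 of every group, and thalamus 3 of GFP-BM CON and 4 of the others. Recovered read totals ran from 17085018 to 26010509 a library, and each of the 10 genes had at least 15 reads in every library. Time of day and the order of collection were not given in the sources used here. In 3 of the 12 hippocampus libraries the mean log2 level of 12 cortex markers exceeded that of 12 hippocampus markers, by 1.5 in WT CON replicate 2, 2.00 in GFP-BM REPOP replicate 1 and 1.20 in GFP-BM REPOP replicate 4. The other 9 had differences of -0.21 or lower, so the counts and medians of the hippocampus comparisons are given with and without these 3 libraries.

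RefSeq promoter windows (GRCm38.p6) were held for 8 of the 10 genes, and not for Arc or Egr1. The 250 bases before the start are shown for the 6 that had a single listed start and bases after it found in a transcript of the gene. Whether elements in these windows bear on the levels of the genes was not tested. Each is written 5′ to 3′ on the gene's strand, and capitals mark TGACG, the half-site of the cyclic AMP response element, or its reverse complement CGTCA.
Fos, chr12:85473640-85473889, strand +: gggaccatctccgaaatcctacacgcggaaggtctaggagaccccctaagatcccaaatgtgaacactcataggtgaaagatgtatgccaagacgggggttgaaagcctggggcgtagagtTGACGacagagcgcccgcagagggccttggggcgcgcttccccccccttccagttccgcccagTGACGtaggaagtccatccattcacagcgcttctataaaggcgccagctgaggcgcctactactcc
Fosb, chr7:19310046-19310295, strand -: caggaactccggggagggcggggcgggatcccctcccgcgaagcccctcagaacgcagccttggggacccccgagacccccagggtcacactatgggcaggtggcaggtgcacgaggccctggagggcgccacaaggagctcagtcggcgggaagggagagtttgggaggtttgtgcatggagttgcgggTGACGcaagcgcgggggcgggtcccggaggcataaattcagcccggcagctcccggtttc
Egr4, chr6:85513590-85513839, strand -: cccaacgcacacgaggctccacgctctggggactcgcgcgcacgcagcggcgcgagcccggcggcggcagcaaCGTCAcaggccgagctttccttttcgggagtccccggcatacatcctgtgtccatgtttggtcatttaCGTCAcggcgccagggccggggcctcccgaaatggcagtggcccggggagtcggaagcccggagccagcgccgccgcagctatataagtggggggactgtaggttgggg
Npas4, chr19:4989972-4990221, strand -: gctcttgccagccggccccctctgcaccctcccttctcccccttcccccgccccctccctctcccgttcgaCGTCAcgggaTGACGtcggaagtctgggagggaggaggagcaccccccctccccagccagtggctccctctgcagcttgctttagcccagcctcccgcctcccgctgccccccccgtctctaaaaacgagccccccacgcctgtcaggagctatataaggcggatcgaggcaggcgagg
Nr4a1, chr15:101266596-101266845, strand +: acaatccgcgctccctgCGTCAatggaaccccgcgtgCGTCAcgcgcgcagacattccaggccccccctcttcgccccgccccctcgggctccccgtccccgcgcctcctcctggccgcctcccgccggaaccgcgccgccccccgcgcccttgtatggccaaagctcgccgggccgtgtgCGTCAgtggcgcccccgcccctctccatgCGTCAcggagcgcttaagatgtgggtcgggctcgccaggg
Dusp1, chr17:26508473-26508722, strand -: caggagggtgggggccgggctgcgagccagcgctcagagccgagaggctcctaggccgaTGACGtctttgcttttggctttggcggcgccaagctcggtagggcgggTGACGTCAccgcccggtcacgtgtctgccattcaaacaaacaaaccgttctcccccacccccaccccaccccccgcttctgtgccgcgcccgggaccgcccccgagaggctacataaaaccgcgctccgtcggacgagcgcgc
All 8 genes had TGACG on either strand in at least 1 window. Counted by window, 10 of the 12 windows of these 8 genes held the half-site, against 17.8% of all 32851 windows. Egr2 has several listed starts, and some of its windows overlap. The full element TGACGTCA, which contains the half-site, was found only in the Dusp1 window among the 8 genes, and in 1.55% of all windows. The AP-1 site TGANTCA was in none of them and in 6.75% of all windows. These matches are descriptions of sequence; binding was not measured.

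Levels differed between the regions of WT CON mice. Over WT CON cortex libraries, Egr1 had the highest mean level of the 10 genes, 143 FPKM ± 21.0 (SD, n = 3), followed by Arc at 105 ± 27.8 and Nr4a1 at 76.0 ± 16.2. Egr2 had the lowest, 5.29 ± 1.47, close to Fosb at 6.12 ± 0.833. The ranges of Egr1 (119 to 158) and Arc (73.0 to 123) overlapped, as did those of Fosb and Egr2, so these neighbours in the order did not separate.

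All 10 genes were lower in WT CON thalamus than in cortex in a limma fit over the 9 groups with the animal as a block (Benjamini-Hochberg adjusted p from 0.00014 to 0.048), where 30% of all genes tested were called in either direction and 17% as lower. The median log2 difference was -1.43. Egr2 fell by 2.51 on the log2 scale (SE 0.57, adjusted p = 0.0024), Arc by 2.2 (SE 0.41, adjusted p = 0.00036) and Egr1 by 1.81 (SE 0.31, adjusted p = 0.00014). Fos and Dusp1 stood at the threshold, each with an adjusted p of 0.048, and passed in 11 and 12 of 34 fits that left out 1 library.

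Between hippocampus and thalamus of WT CON mice, all 10 genes had higher means in hippocampus and 8 were called, against 9.88% of all genes called higher and 17.7% called in either direction. Egr4 rose by 1.30 (SE 0.26, adjusted p = 0.00097) and Arc by 1.36 (SE 0.38, adjusted p = 0.013), while Fos had a log2 difference of 0.57 (adjusted p = 0.35) and Dusp1 of 0.25 (adjusted p = 0.63). The count was 4 without the 3 hippocampus libraries high in cortex markers, 3 without WT CON hippocampus replicate 2 alone, 3 without WT CON thalamus replicate 4 and 5 without WT CON hippocampus replicate 3. Between hippocampus and cortex none of the 10 was called, 1 had an unadjusted p under 0.05 (Egr1, log2 difference -0.76, adjusted p = 0.055), and the median was -0.55, with 36.9% of all genes called. Without the 3 libraries, 2 of the 10 were called lower in hippocampus, with a median of -0.78.

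**Figure D1:**
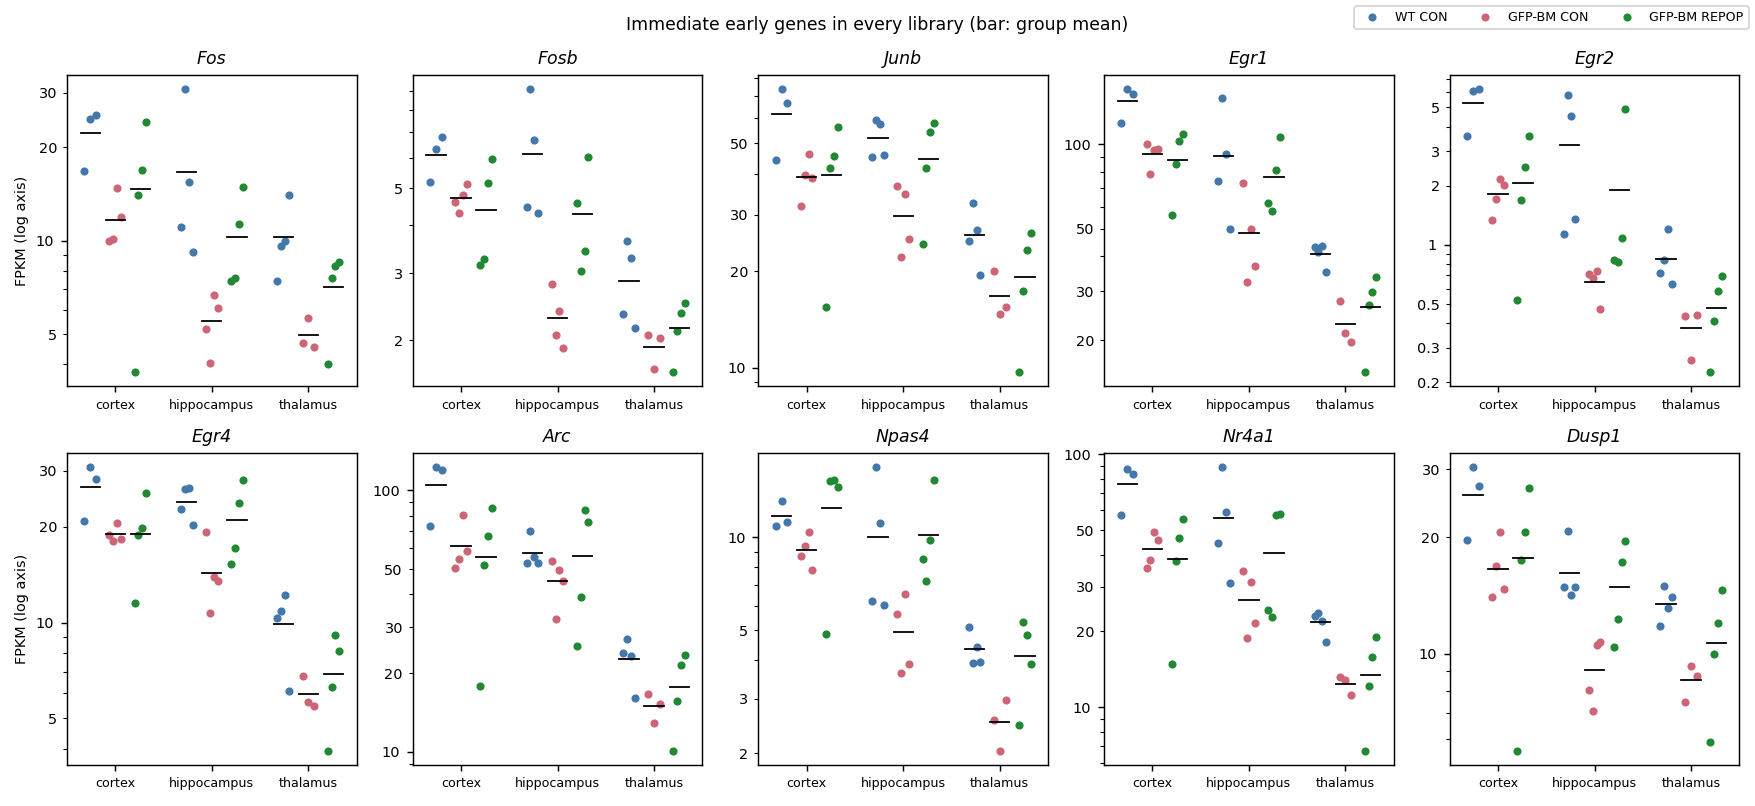
FPKM of each of the 10 genes on a log axis (vertical) in every library, by region (horizontal) and treatment group (colour), with a bar at the group mean. Levels fall from cortex to thalamus, GFP-BM CON points lie mostly below WT CON points, and GFP-BM REPOP values of Fos in cortex run from 3.77 to 24.1 FPKM.

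Irradiated and transplanted mice had lower mean levels of all 10 genes than WT CON mice in each of the 3 regions, but no gene passed an adjusted p of 0.05 in the limma fit of any region. The median log2 difference of the 10 genes was -0.63 in cortex, -0.90 in hippocampus and -0.72 in thalamus, against 0.02, -0.03 and -0.06 over all genes tested, of which 44%, 53.3% and 56.5% had a difference below 0. The share of all genes called was 0.32%, 0% and 0%. At an unadjusted p under 0.05, 4, 9 and 8 of the 10 were lower, against 3.81%, 9.23% and 7.16% of all genes called lower at that level, and a voom fit on recovered reads also called none of the 10 at the adjusted threshold.

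Fos (Entrez 14281, chr12:85473890-85477274, GRCm38.p6 here and for the other genes), which pairs with Jun proteins in AP-1, was among those that separated by library in all 3 regions. In cortex its WT CON libraries had 16.8, 24.7 and 25.4 FPKM and its GFP-BM CON libraries 9.95, 10.1, 14.8 and 11.9. In hippocampus the values were 11.1, 30.9, 15.5 and 9.19 in WT CON against 5.19, 4.03, 6.69 and 6.09 in GFP-BM CON, and in thalamus 7.41, 9.64, 9.99 and 14.0 against 4.69, 5.66 and 4.54. No GFP-BM CON library reached the lowest WT CON library of its region. The log2 difference was -0.92 (SE 0.47, adjusted p = 0.38) in cortex, -1.44 (SE 0.35, adjusted p = 0.072) in hippocampus and -1.0 (SE 0.27, adjusted p = 0.10) in thalamus.

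Fosb (Entrez 14282, chr7:19302696-19310118), whose protein also joins AP-1 and has a long-lived truncated form, had 4.48, 9.11, 6.67 and 4.31 FPKM in WT CON hippocampus and 2.81, 2.07, 2.39 and 1.91 in GFP-BM CON, with no overlap. The log2 difference there was -1.33 (SE 0.27, adjusted p = 0.071), the lowest adjusted p of the 10 in that region. In cortex the groups were closer, at 5.20, 6.33 and 6.83 against 4.59, 4.31, 4.80 and 5.14 (log2 difference -0.36, SE 0.20, adjusted p = 0.42). Junb (Entrez 16477, chr8:84976909-84978748), which encodes a Jun protein, separated only in hippocampus, with 45.4, 59.0, 57.3 and 45.9 FPKM against 36.8, 22.1, 34.8 and 25.1 (log2 difference -0.82, SE 0.26, adjusted p = 0.097).

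Egr2 (Entrez 13654, chr10:67534469-67542188), which also directs myelination in Schwann cells, had the most negative log2 difference of the 10 in cortex and hippocampus. Its WT CON cortex libraries had 3.60, 6.05 and 6.23 FPKM and its GFP-BM CON libraries 1.34, 1.71, 2.17 and 2.02, a log2 difference of -1.48 (SE 0.47, adjusted p = 0.17). In hippocampus WT CON values were split between 1.13 and 1.36 on one side and 4.51 and 5.82 on the other, all above the GFP-BM CON values of 0.710, 0.679, 0.740 and 0.471 (log2 difference -1.84, SE 0.60, adjusted p = 0.11). Egr2 was under 1 FPKM in 17 of the 34 libraries, so its values rest on fewer reads than those of the other genes.

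Egr1 (Entrez 13653, chr18:34861207-34864956), a widely used marker of neuronal activation, had 119, 158 and 151 FPKM in WT CON cortex and 100, 78.4, 95.9 and 96.7 in GFP-BM CON. Its hippocampus groups overlapped, since GFP-BM CON replicate 1 at 73.1 lay above WT CON replicate 4 at 49.9. The log2 differences were -0.62 (SE 0.19, adjusted p = 0.17) in cortex, -0.88 (SE 0.33, adjusted p = 0.14) in hippocampus and -0.84 (SE 0.23, adjusted p = 0.11) in thalamus. Egr4 (Entrez 13656, chr6:85511121-85513589), a related factor, had log2 differences of -0.47, -0.75 and -0.68 in the same order, with adjusted p of 0.31, 0.081 and 0.23.

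Npas4 (Entrez 225872, chr19:4984353-5003439), which is largely restricted to neurons, had 5.14, 3.91, 4.41 and 3.94 FPKM in WT CON thalamus and 2.56, 2.04 and 2.98 in GFP-BM CON (log2 difference -0.77, SE 0.24, adjusted p = 0.15). Arc (Entrez 11838, chr15:74669081-74672570) had the smallest hippocampal difference of the 10, with 52.7, 69.7, 55.5 and 52.7 FPKM against 53.6, 32.2, 49.6 and 45.2. These groups overlapped (log2 difference -0.37, SE 0.32, adjusted p = 0.51). Nr4a1 (Entrez 15370, chr15:101253902-101274795) was separated in thalamus, at 23.0, 23.5, 22 and 18.1 FPKM against 13.2, 12.8 and 11.2 (log2 difference -0.79, SE 0.28, adjusted p = 0.18). Dusp1 (Entrez 19252, chr17:26505591-26508472), the feedback phosphatase, had 14.9, 20.8, 14.2 and 14.9 FPKM in WT CON hippocampus and 8.03, 7.11, 10.5 and 10.7 in GFP-BM CON (log2 difference -0.84, SE 0.22, adjusted p = 0.072).

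Counted over the 10 genes, GFP-BM CON libraries lay wholly below WT CON libraries for 7 in cortex, 6 in hippocampus and 7 in thalamus, where 4.43%, 8.32% and 8.43% of all genes did so. In bulk tissue, fewer cells that express a gene and less RNA per cell cannot be told apart. The count in hippocampus moved with the fit and with single libraries, and the cause was not tested. A fit of all 9 groups together, without the animal block, called 7 of the 10 lower (19.4% of all genes called in either direction). A fit with library quality weights called 9 (18% called in either direction). The fit of hippocampus alone called 3 without GFP-BM CON replicate 4 (5.4% of all genes called) and 2 without WT CON replicate 3 (6.55%). In thalamus, Fos was called without WT CON replicate 1 (log2 difference -1.15, adjusted p = 0.035, 8.01% of all genes called). Without the 3 libraries high in cortex markers none was called (0.0068% of all genes called), all 10 remained lower and the median was -0.73.

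The libraries also differed by base composition. The gap between the median log2 level of the tenth of genes richest in GC and the tenth poorest ran from 0.76 to 1.25 in WT CON cortex and from 0.43 to 0.58 in GFP-BM CON (exact permutation test, two-sided p = 0.029, the smallest these group sizes allow). It ran from 1.75 to 3.39 against 0.72 to 2.08 in hippocampus (exact p = 0.057) and from 1.09 to 3.65 against 0.46 to 0.83 in thalamus (exact p = 0.086, where the smallest possible is 0.029). The transcripts of the 10 genes had a median GC content of 56.5%, against 50.1% over all genes tested. After correction for GC content and length the medians were -0.61, -0.72 and -0.50, and all 10 genes stayed lower in each region.

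**Figure D2:**
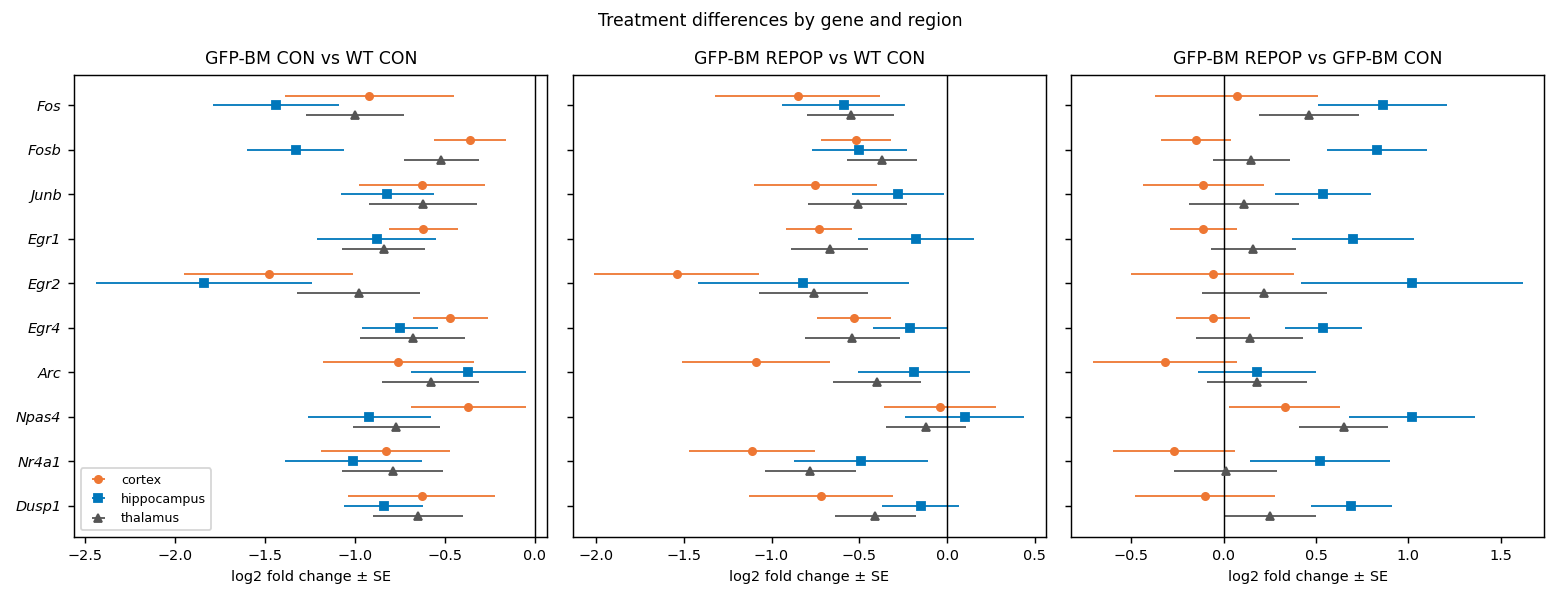
Log2 fold change (horizontal) ± SE of each gene in cortex, hippocampus and thalamus for the 3 treatment comparisons, from the limma fit of each region. All points lie left of 0 for GFP-BM CON against WT CON, and hippocampus points lie right of 0 where the transplanted groups are compared, with a median of 0.69.

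Averaging the 3 regions of each of the 10 animals that had all of them, a choice made after the data were seen, gave 3 called genes for GFP-BM CON against WT CON, with 12.9% of all genes called and 2.34% called lower. Fos fell by 1.29 on the log2 scale (SE 0.31, adjusted p = 0.023), Fosb by 0.82 (SE 0.19, adjusted p = 0.018) and Egr2 by 1.62 (SE 0.43, adjusted p = 0.034). The count was 0 without the WT CON animal labelled 34, 0 without the GFP-BM CON animal labelled 6, 5 without the WT CON animal labelled 36, and 9 without the GFP-BM REPOP animal labelled 1. The share of all genes called in each of these fits is not given here, so the counts describe only how far the result moved. The other 7 genes had differences from -0.95 to -0.64.

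After microglial depletion and repopulation the 10 genes had mostly lower means than in WT CON, with no gene called. Against the same WT CON libraries, GFP-BM REPOP libraries had medians of -0.74 in cortex, -0.25 in hippocampus and -0.52 in thalamus, with 10, 9 and 10 of the genes lower beside 44.4%, 49.4% and 55.1% of all genes. Of the 10, 3, 0 and 1 lay wholly below WT CON, against 4.6%, 1.88% and 6.87% of all genes. The share of all genes called was 0.734%, 0.0136% and 0.836%. At an unadjusted p under 0.05, 6, 0 and 3 of the 10 were lower, against 5.17%, 4.75% and 9.96% of all genes, and the voom fit called none of the 10 at the adjusted threshold. Npas4 had log2 differences of -0.04 in cortex, 0.10 in hippocampus and -0.12 in thalamus (adjusted p from 0.71 to 0.97).

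In hippocampus the cortex markers of the GFP-BM REPOP libraries, at 3.05 to 3.69, lay above those of WT CON, at 2.55 to 2.84 (8 of 12 markers higher, exact permutation test, two-sided p = 0.029). Without the 3 libraries high in cortex markers the hippocampus median was -0.11 and none of the 10 genes was called. In thalamus the gap between GC-rich and GC-poor genes ran from 0.51 to 0.94 in GFP-BM REPOP against 1.09 to 3.65 in WT CON (exact p = 0.029), and the exact p was 0.17 in cortex and in hippocampus. After correction for GC content and length the medians were -0.74 in cortex, -0.20 in hippocampus and -0.32 in thalamus.

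The cortex value rested in part on 1 library. GFP-BM REPOP replicate 1 was the lowest of its group for all 10 genes in cortex and in thalamus. Its Arc level in cortex was 17.8 FPKM beside 51.9, 66.7 and 86.0, and its Dusp1 level 5.61 beside 17.5, 20.7 and 26.9. Its Npas4 level was 4.86 beside 15.2, 15.3 and 14.6, and without it the Npas4 difference from WT CON was 0.36 (SE 0.10, adjusted p = 0.089). Without this library the cortex median against WT CON was -0.36, and 3 genes were called lower in GFP-BM CON than in WT CON, with 1.56% of all genes called. These were Egr2 (-1.48, adjusted p = 0.026), Egr1 (-0.62, adjusted p = 0.031) and Nr4a1 (-0.83, adjusted p = 0.040). In the left-out library, cortex markers exceeded hippocampus markers by 0.98 in mean log2 level, against 1.68 to 2.46 in other cortex libraries. The excess was 2.00 in the hippocampus library of the same animal. The part of the tissue taken in the levels of these libraries was not tested.

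The mean of the 10 genes, as a log2 difference from the WT CON mean of the region, put the same animal lowest of its group in each region. The animal labelled 1 stood at -1.92 in cortex, -0.80 in hippocampus and -1.23 in thalamus. In hippocampus the animal labelled 2 was close to it, at -0.72, and each of them was the lowest of the group for 5 of the 10 genes. The animal labelled 4 stood at -0.12, 0.33 and -0.12, the highest of its group each time. The hippocampus libraries of the animals labelled 1 and 4 are among the 3 high in cortex markers. Among cortex libraries, that of the animal labelled 1 had the smallest excess of cortex over hippocampus markers, 0.98. GFP-BM CON animals stayed within -0.86 to -0.48 in cortex, -1.36 to -0.76 in hippocampus and -0.84 to -0.64 in thalamus.

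**Figure D3:**
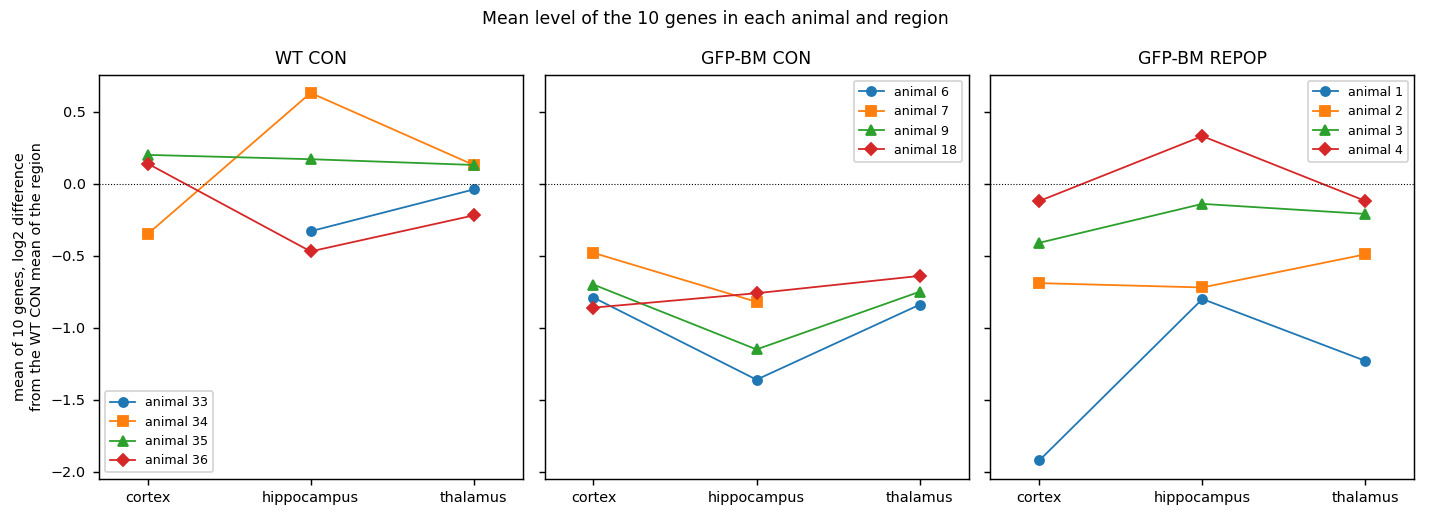
Mean over the 10 genes of the log2 difference from the WT CON mean of the region (vertical) in cortex, hippocampus and thalamus, with a line for each animal and a panel for each group. The GFP-BM REPOP animal labelled 1 runs from -1.92 to -0.80 and the one labelled 4 from -0.12 to 0.33.

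Between the transplanted groups no gene was called in any region. In hippocampus all 10 genes were higher in GFP-BM REPOP, with a median of 0.69, while in cortex 8 were lower (median -0.10) and in thalamus all 10 were higher (median 0.17). Of all genes 48.6% were higher in hippocampus, 57.3% lower in cortex and 46.8% higher in thalamus. The share of all genes called was 0.0272% in hippocampus, 0.0476% in cortex and 0% in thalamus. In hippocampus 5 of the 10 had an unadjusted p under 0.05, against 6.19% of all genes called higher at that level, and 4 did not overlap (Fos, Fosb, Egr2 and Npas4), against 4.12%. In thalamus 1 gene, Npas4, had an unadjusted p under 0.05 (log2 difference 0.65, with 0.619% of all genes higher at that level), in cortex none had, and the voom fit called none of the 10 in any region. Without GFP-BM REPOP replicate 1 the cortex median was 0.23 and Npas4 was called higher (log2 difference 0.73, SE 0.09, adjusted p = 0.042), with 0.0476% of all genes called.

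In hippocampus, Npas4 had 8.51, 7.24, 9.80 and 15.3 FPKM in GFP-BM REPOP against 5.65, 3.65, 6.54 and 3.89 in GFP-BM CON (log2 difference 1.02, SE 0.34, adjusted p = 0.31). Fosb had 4.57, 3.03, 3.43 and 6.05 against 2.81, 2.07, 2.39 and 1.91 (log2 difference 0.83, SE 0.27, adjusted p = 0.31). For both genes the lowest GFP-BM REPOP value exceeded the highest GFP-BM CON value. Arc overlapped, at 25.4, 39.2, 84.4 and 75.5 FPKM against 53.6, 32.2, 49.6 and 45.2 (log2 difference 0.18, SE 0.32).

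Region markers also differed between the hippocampus libraries of the transplanted groups. The mean log2 level of cortex markers ran from 3.05 to 3.69 in GFP-BM REPOP hippocampus and from 2.61 to 3.00 in GFP-BM CON (exact permutation test, two-sided p = 0.029, the smallest possible), with 9 of 12 markers higher and summed levels of 181 to 299 against 116 to 158 FPKM. Of 12 hippocampus markers, 10 were lower, with means of 1.69 to 3.97 against 3.34 to 4.20 (exact p = 0.086). Without the 3 libraries high in cortex markers, 2 GFP-BM REPOP libraries remained, the median was 0.55 and no gene was called. Summed striatum markers ran from 126 to 2030 FPKM in GFP-BM REPOP hippocampus and from 141 to 174 in GFP-BM CON. Summed choroid plexus markers ran from 82.7 to 292 and from 50.1 to 6380 in the same order. The part of tissue composition in the difference of the 10 genes was not tested.

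Whether the regions responded alike was tested by interaction terms in the fit of all 9 groups. None of the 10 genes was called in any of the 9 tests, with 0% of all genes called in 5 of them, 0.0272% or 0.034% in 3 and 0.177% in the last, the difference of GFP-BM REPOP from GFP-BM CON for hippocampus minus cortex. Fosb was the only gene of the 10 with an unadjusted p under 0.05 in any of them. For hippocampus minus cortex it had a difference of 0.99 (SE 0.34, unadjusted p = 0.0073, adjusted p = 0.32) between the transplanted groups. For the same regions it was -0.96 (SE 0.35, unadjusted p = 0.012, adjusted p = 0.49) for GFP-BM CON against WT CON. In the latter comparison 1 of the 10 also had an unadjusted p under 0.05 for hippocampus minus thalamus. The median of the 10 genes for hippocampus minus cortex was -0.27 for GFP-BM CON against WT CON and 0.78 between the transplanted groups. The latter was 0.33 without GFP-BM REPOP cortex replicate 1. Without the 3 hippocampus libraries these medians were -0.11 and 0.71, and none of the 10 genes was called in any of the 9 tests. The intervals were wide: for Fos the 95% confidence interval of hippocampus minus cortex ran from -1.73 to 0.70 for GFP-BM CON against WT CON, so a p over the threshold does not show that the regions responded alike.

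**Figure D4:**
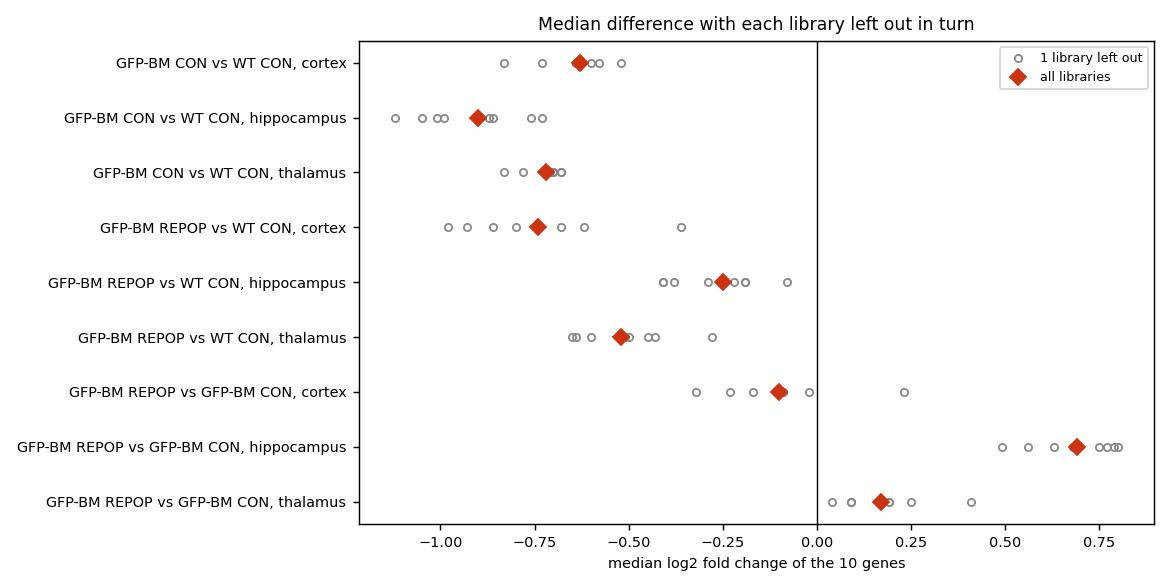
Median log2 fold change of the 10 genes (horizontal) for each comparison and region with all libraries (diamonds) and with each library left out in turn (circles). GFP-BM CON against WT CON stays below 0 throughout, and the comparison of the transplanted groups in cortex moves from -0.10 to 0.23 without GFP-BM REPOP replicate 1.

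Other genes of the pathway were read from lists. Of 22 other early transcription factors tested, none was called for GFP-BM CON against WT CON in any region, and 18, 17 and 17 were lower in cortex, hippocampus and thalamus, with medians of -0.19, -0.27 and -0.25. Over all genes 44%, 53.3% and 56.5% were lower, with medians of 0.02, -0.03 and -0.06, and 0.32%, 0% and 0% were called. At an unadjusted p under 0.05, 5, 7 and 7 of the 22 were lower, against 3.81%, 9.23% and 7.16% of all genes. For GFP-BM REPOP against WT CON in cortex, where 0.734% of all genes were called, Fosl2, another AP-1 subunit, fell by 0.66 (SE 0.12, adjusted p = 0.028) and Klf10, a zinc-finger factor, by 0.57 (SE 0.12, adjusted p = 0.048). Ier5 was higher in GFP-BM REPOP than in GFP-BM CON hippocampus, where 0.0272% of all genes were called (log2 difference 0.87, SE 0.12, adjusted p = 0.029), and its difference exceeded that in cortex by 0.99 (SE 0.17, adjusted p = 0.012).

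Among 11 other feedback inhibitors 1 was called in the treatment comparisons within regions, the phosphatase Dusp14, which fell in cortex by 0.33 in GFP-BM CON (SE 0.06, adjusted p = 0.037) and by 0.40 in GFP-BM REPOP (SE 0.06, adjusted p = 0.0085) against WT CON. For GFP-BM CON against WT CON, 10, 6 and 8 of the 11 were lower in cortex, hippocampus and thalamus, with medians of -0.33, -0.12 and -0.28. Over all genes 44%, 53.3% and 56.5% were lower. In cortex 0.32% of all genes were called for GFP-BM CON and 0.734% for GFP-BM REPOP against WT CON. Of 19 later activity targets 1 was called in those comparisons, Vgf, a secreted neuropeptide precursor, which fell by 0.32 in GFP-BM REPOP cortex against WT CON (SE 0.06, adjusted p = 0.039). For GFP-BM CON against WT CON, 12, 11 and 10 of the 19 were lower, beside the shares over all genes above. Of 26 upstream regulators 1 was called in those comparisons, the MAP kinase Mapk3, which rose by 0.25 in GFP-BM CON cortex against WT CON (SE 0.04, adjusted p = 0.042). For GFP-BM CON against WT CON, 4, 13 and 12 of the 26 were lower, with medians of 0.07, -0.02 and 0.04, beside the same shares over all genes. More genes of these lists were called between regions of WT CON mice. In thalamus against cortex, where 17% of all genes were called lower, 12 of the 22 early factors, 6 of the 11 inhibitors, 8 of the 19 targets and 11 of the 26 regulators were.

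Within groups the levels of the 10 genes were correlated. Over the 34 libraries, each centred on its group, the correlation of each gene with the mean of the other 9 ran from 0.75 for Fosb to 0.955 for Nr4a1. The points share libraries and animals, so the values are descriptive. Outside the 10, the genes most like their mean were Btg2 (r = 0.865), Ovca2 (0.841), Per1 (0.815), Cyr61 (0.805), Sik1 (0.763), Arl4d (0.71), Pcsk2os1 (0.692), Ier2 (0.663), Dbp (0.66) and Otud1 (0.652). None of these was called in any treatment comparison.

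Marker genes of cell types were read beside these results. The mean log2 level of 7 excitatory neuron markers ran from 6.72 to 6.78 in GFP-BM CON cortex and from 6.66 to 6.76 in WT CON (4 of 7 higher, exact p = 0.29), and from 6.32 to 6.89 against 4.99 to 6.73 in hippocampus (7 of 7 higher, exact p = 0.23). Of 10 microglia markers 8 were lower in GFP-BM CON cortex, at 2.99 to 3.07 against 3.08 to 3.27 (exact p = 0.029), while their mean differed by 0.06 in hippocampus (exact p = 0.63) and -0.18 in thalamus (exact p = 0.086). In GFP-BM REPOP their mean differed from WT CON by -0.50 in cortex (exact p = 0.029), -0.29 in hippocampus (exact p = 0.14) and -0.31 in thalamus (exact p = 0.029). Of 8 astrocyte markers 6 were higher in GFP-BM CON hippocampus, at 6.32 to 6.51 against 5.78 to 6.02 (exact p = 0.029), and their mean differed by 0.01 in cortex (exact p = 0.83) and 0.14 in thalamus (exact p = 0.14). All 8 oligodendrocyte markers were higher in GFP-BM CON hippocampus, at 6.22 to 7.74 against 5.79 to 6.66 (exact p = 0.14). All 6 measured markers of monocyte-derived macrophages were higher in both GFP-BM groups in each region, with summed levels in cortex of 60.5 to 98.3 FPKM in GFP-BM REPOP, 12.1 to 20.5 in GFP-BM CON and 8.21 to 9.71 in WT CON. The macrophage list shares genes with the monocyte signature that the paper drew from these same data. Its rise is therefore not an independent result. No marker of the lists above was at 0. The mean of 8 heat shock genes in GFP-BM CON differed from WT CON by -0.06 in cortex, 0.10 in hippocampus and -0.06 in thalamus (exact p = 0.17, 0.29 and 0.40). The part of these cells in the levels of the 10 genes was not tested.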

How the data were processed

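Paired-end RNA-seq libraries were made from dissected mouse brain. Per the labels, the authors used STAR, featureCounts, edgeR and limma on build mm10, and deposited FPKM per gene. Whole-number read counts were recovered from the deposited FPKM (100.0% of values within 0.01 read) and used in a voom alternative. Values were tested as log2(FPKM + 0.1), which understates changes of low genes. Genes with 1 FPKM in 3 libraries were kept, and 343 of other biotypes were left out. Each region was fitted with limma-trend (limma 3.58.1, R 4.3.3) over its 3 groups, with Benjamini-Hochberg adjustment over 14710 genes and a threshold of 0.05. Interactions and region contrasts used 9 groups, the animal being a random block (correlation -0.038). Marker lists and GC measures were compared by exact permutation, two-sided. GC content and length came from GENCODE transcripts, for 94.32% of genes tested. The genes and lists were chosen with earlier results of these data known. Genes named outside the 10 were list genes that passed, at most 3 a list and comparison, and the 10 most correlated with their mean. Leaving out the 3 hippocampus libraries and averaging regions were chosen after seeing the data. Fits were tested on simulated data.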

Additional observations from a re-analysis of the deposited data

Results flagged for a closer look

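Dixon's ratio on log2 values was examined in 7 groups of 4 libraries for each gene and for the mean of the 10, 77 in all. In these, 4 values lay far from the rest of their group. Chance gives about 1 in 20, so the count is near what chance gives. The genes share libraries, so the 77 are not independent. Fos in GFP-BM REPOP thalamus replicate 1 was lowest at 4.00 FPKM. Npas4 in GFP-BM REPOP cortex replicate 1 was lowest at 4.86 FPKM. Egr2 in GFP-BM REPOP hippocampus replicate 4 was highest at 4.89 FPKM, and Dusp1 in WT CON hippocampus replicate 2 was highest at 20.8 FPKM. The Fos and Npas4 libraries come from 1 animal, and the Npas4 library had the smallest excess of cortex over hippocampus markers among cortex libraries. The other two are among the 3 hippocampus libraries with cortex markers above hippocampus markers. The part of the tissue taken in these values was not tested.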

How the results depend on the processing

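No setting tried, fits without 1 library included, turned the sign of the median of the 10 genes for GFP-BM CON against WT CON, which ran from -0.83 to -0.52 in cortex, -1.12 to -0.72 in hippocampus and -0.83 to -0.50 in thalamus. The settings were other pseudocounts, filters, scalings, library weights, voom, GC and length correction, the replicate block and fits of 2 groups, or of 9 without the animal block. The number of the 10 genes called moved as follows. For GFP-BM CON against WT CON it was 1 in cortex with only the 2 groups fitted. In hippocampus it was 9 with library quality weights (18% of all genes called) and 7 with all 9 groups (19.4%). For GFP-BM REPOP over GFP-BM CON in hippocampus it was 3 with weights (6.95% of all genes called) and 1 with 9 groups (4.52%). In the main fit 0.0272% of all genes were called there. For WT CON hippocampus against cortex it was 1 without the animal block, 3 with GC and length correction and 2 without the 3 hippocampus libraries high in cortex markers, and against thalamus it was 4 without them. Leaving out 1 library gave 0 to 3 for GFP-BM CON against WT CON in cortex and in hippocampus, 0 to 1 in thalamus, 0 to 1 for GFP-BM REPOP over GFP-BM CON in cortex, 0 to 3 for hippocampus against cortex and 3 to 8 for hippocampus against thalamus. Leaving out 1 animal from the mean of 3 regions gave 0 to 9 for GFP-BM CON and 0 to 2 for GFP-BM REPOP against WT CON. Shares of all genes are not given here for these animal fits. The cause of these shifts was not tested.

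Some single genes changed sign. With library quality weights Npas4 was 0.18 for GFP-BM REPOP against WT CON in cortex; against GFP-BM CON, Junb was 0.02, Egr2 0.08, Egr4 0.02 and Dusp1 0.07 in cortex, and Junb -0.03 and Nr4a1 -0.05 in thalamus. Egr2 was 0.03 there in cortex with a pseudocount of 1. Arc was 0.10 for GFP-BM REPOP against WT CON in hippocampus without the 3 libraries, and Npas4 0.09 in thalamus with GC and length correction. Leaving out 1 library moved these across 0. For GFP-BM REPOP over GFP-BM CON in cortex the ranges were -0.25 to 0.63 for Fos, -0.33 to 0.29 for Junb, -0.23 to 0.09 for Egr1, -0.40 to 0.45 for Egr2, -0.22 to 0.16 for Egr4, -0.60 to 0.15 for Arc, -0.50 to 0.14 for Nr4a1 and -0.36 to 0.38 for Dusp1. In hippocampus Arc ran from -0.07 to 0.50, and in thalamus Junb from -0.08 to 0.40, Egr4 from -0.01 to 0.38 and Nr4a1 from -0.18 to 0.31. For GFP-BM REPOP against WT CON, Npas4 ran from -0.19 to 0.36 in cortex, -0.11 to 0.39 in hippocampus and -0.26 to 0.10 in thalamus, and in hippocampus Egr1 from -0.43 to 0.09, Arc from -0.44 to 0.14 and Dusp1 from -0.30 to 0.01. Fosb ran from -0.27 to 0.08 for WT CON hippocampus against cortex.

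Replicate numbers mark different animals in each group and do not pair them: deviations of same-numbered libraries correlated at -0.11 to 0.25 in cortex, -0.43 to 0.49 in hippocampus and -0.35 to 0.14 in thalamus. With the replicate number as a block, 0 of the 10 genes were called in each of the 9 treatment comparisons, and Nr4a1 turned to -0.04 for GFP-BM REPOP over GFP-BM CON in thalamus. Egr2, with as few as 15 reads a library, is the gene most limited by depth.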
